A study of Mus musculus with 4 samples.

Results

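The growth hormone and insulin-like growth factor (IGF) axis was described in induced hepatocyte-like (iHep) cells through 10 genes chosen by name: the receptors Ghr and Igf1r, the hormone Igf1, the feedback genes Socs2 and Cish, and the carriers Igfals, Igfbp1, Igfbp2, Igfbp3 and Igfbp4. They are 10 of 27975 gene names on the array and are read by 24 of its 41174 probes. A gene was tested where a probe of it was called well above background on 2 or more of the 4 arrays, which 16458 gene names met, all 10 axis genes among them. The same held for 20 of their 24 probes. The iHep cells were of C57BL/6 mice, and the labels give their source as cells named MDFs. They were grown in 3D culture (2 arrays) or 2D culture (2 arrays), and each of 2 independent experiments, iHep-1 and iHep-2, gave 1 array per culture. The sources used here do not give the form of the 3D culture, the medium or whether growth hormone was present. A plus sign stands in the 2D titles and not in the 3D ones, and whatever it marks cannot be told apart from culture.

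Growth hormone from the pituitary binds its receptor on hepatocytes, which activates the kinase JAK2 and the transcription factor STAT5. STAT5 then induces Igf1, Igfals, Socs2 and Cish in liver, and the SOCS2 and CISH proteins restrain the receptor. IGF-1 travels in blood bound to IGF-binding proteins, mostly in a complex with IGFBP3 and the acid-labile subunit encoded by Igfals, and acts on other tissues through the IGF-1 receptor. Adult hepatocytes make most circulating IGF-1 and little of its receptor, and insulin represses hepatic Igfbp1 through FOXO factors.

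The 4 probes of 60 bases printed here read genes whose differences the results turn on, and show the stretch of transcript that was measured. The Ghr and Igfbp3 probes span 7453 and 1010 genomic bases, more than their own length. For Ghr, Igf1 and Igfbp3 a brighter probe gave the gene's level, and the values of the printed probes stand beside it in the text. Coordinates are those of the files, on build mm9.
Ghr, chr15:3283509-3290961, minus strand: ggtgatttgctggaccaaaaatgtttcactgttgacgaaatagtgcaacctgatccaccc
Igf1, chr10:87376418-87376477, plus strand: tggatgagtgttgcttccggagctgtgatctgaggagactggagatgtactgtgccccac
Igfbp3, chr11:7108469-7109478, minus strand: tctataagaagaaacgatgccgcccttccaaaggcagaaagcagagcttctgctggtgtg
Igfbp2, chr1:72898677-72898736, plus strand: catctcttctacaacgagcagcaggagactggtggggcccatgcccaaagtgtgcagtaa

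Levels are log2 units relative to the 75th percentile of the same array, so that 0 is a probe as bright as that percentile, and differences are 3D minus 2D on that scale. Probes differ in brightness for the same amount of RNA, so levels are compared between arrays and not between genes. In bulk RNA, fewer cells making a transcript and less transcript per cell cannot be told apart. Per array, 23070 to 24420 probes were well above background in 3D and 23751 to 24390 in 2D. All 7 tested hepatocyte markers were well above background on every array. Of 9 fibroblast markers, Col1a2, Pdgfra and Pdgfrb were tested, while Thy1, Dcn, Lum, Postn, Col1a1 and Col3a1 were well above background on fewer than 2 arrays. The processed signal of the 5 biliary markers, all measured on every array, was summed. The sums were 15052 and 11993 in 3D of iHep-1 and iHep-2, against 8402 and 28815 in 2D. Such sums are not scaled to the array's 75th percentile, which was 594 and 399 in 3D and 523 and 616 in 2D.

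Ghr and 3 of the 4 STAT5 targets among the axis genes, Socs2, Cish and Igf1, differed in opposite directions. With spike-in scaling, however, Ghr was also lower in 3D of iHep-1 (-0.36, where the median of all genes was -1.69). The fourth target, Igfals, differed by -2.72 in iHep-1 and by 0.11 in iHep-2, or -0.42 there with spike-in scaling. In each experiment Ghr was 2-fold or more higher in 3D, whereas Socs2, Cish and Igf1, which growth hormone induces in liver, were 2-fold or more lower. For Igf1 this did not hold with normexp background correction, which gave -0.34 and -0.61. Over all tested genes, 4.26% were at least 2-fold higher and 2.13% at least 2-fold lower in both experiments. Among the 10 axis genes these counts were 1 (Ghr) and 5 (Socs2, Cish, Igf1, Igfbp2 and Igfbp3). The other 4 genes, Igfals, Igf1r, Igfbp1 and Igfbp4, differed in opposite directions in the 2 experiments, as 33.8% of all tested genes did. No gene passed an adjusted p of 0.05 by limma (0% of 16458, higher or lower), so these values describe 2 experiments. At an unadjusted p under 0.05 there were 2 axis genes, Socs2 and Cish, against 7.03% of all genes. With the experiment as a block there were 6 (Ghr, Igf1, Igfbp2, Igfbp3, Socs2 and Cish), against 13.3% of all genes, and again none passed after adjustment. Scaling to spike-in controls in place of the 75th percentile moved the median of all genes to -1.08, and the counts of axis genes at least 2-fold higher and lower in both became 0 and 6, against 168 and 3377 of all genes. On that scaling limma called 0.462% of all genes higher and 1.31% lower. Among the lower were 3 axis genes, Igfbp2, Igfbp3 and Socs2 (adjusted p = 3.83e-05, 0.000413 and 4.80e-05). There the p-values of the axis genes followed the size of the mean difference alone, so they do not measure each gene's own spread.

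**Figure D1:**
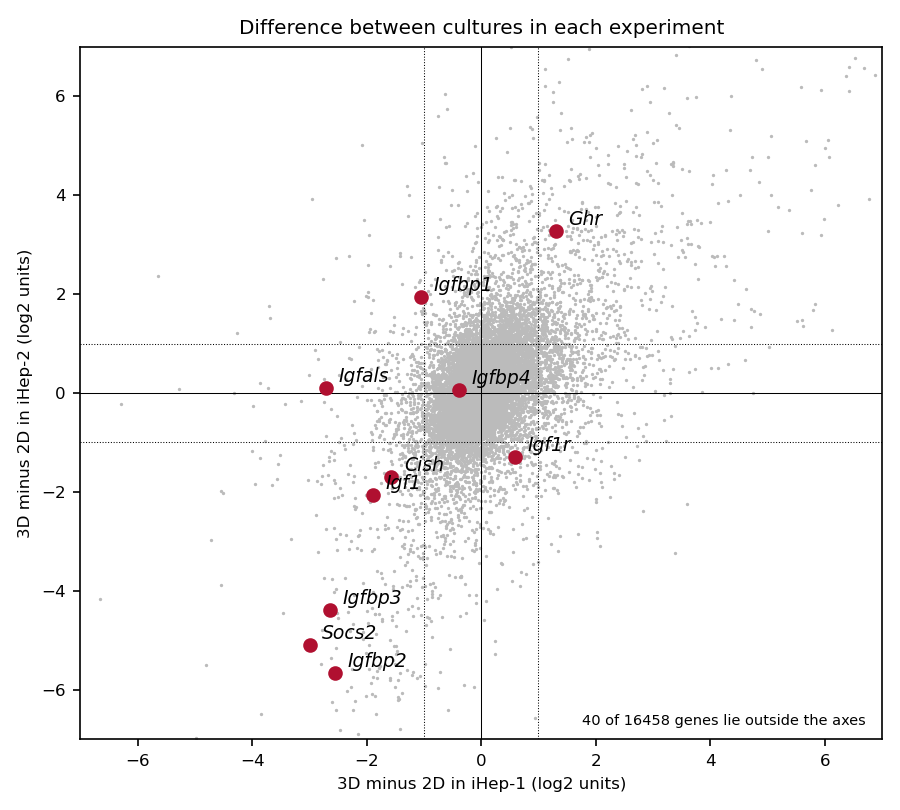
The difference between 3D and 2D culture in iHep-1 (x axis) and iHep-2 (y axis), in log2 units, for 16458 tested genes (grey) and the 10 axis genes (red); dotted lines mark 2-fold. Ghr lies at 1.30 and 3.27, Socs2 at -2.99 and -5.10, and Igfbp1 at -1.04 and 1.94.

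Ghr encodes the growth hormone receptor, and its secreted form serves as the growth hormone-binding protein of plasma. Its brightest probe stood at 0.81 and 4.23 in 3D of iHep-1 and iHep-2, against -0.49 and 0.96 in 2D. The 3D array of iHep-2 was far above the others, and the cultures overlapped, because 2D of iHep-2 was slightly above 3D of iHep-1. The differences were 1.30 and 3.27, with a mean of 2.29 ± 1.40 (SE, n = 2 per culture; 95% interval -1.79 to 6.37; adjusted p = 0.723, limma). Without 3D replicate 2 the mean difference was 0.58. With spike-in scaling the iHep-2 difference of Ghr was 2.74.

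The 5 Ghr probes gave like values. Differences over the 4 probes well above background on every array ran from 1.25 to 1.76 in iHep-1 and from 3.27 to 4.003 in iHep-2. The probe printed above, one of the 4, differed by 1.31 and 4.003. These probes lie between positions 3268107 and 3295379 of chromosome 15 (mm9), on the minus strand. The fifth, at chr15:3275624-3275683, was above background on 1 array, 3D of iHep-2. It differed by 1.37 and 3.12, values that rest on background signals on the other arrays. Where a fold is given below as at least a value, the dim culture is given a floor. Per array this is its own signal or the lowest one called well above background, whichever is larger.

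**Figure D2:**
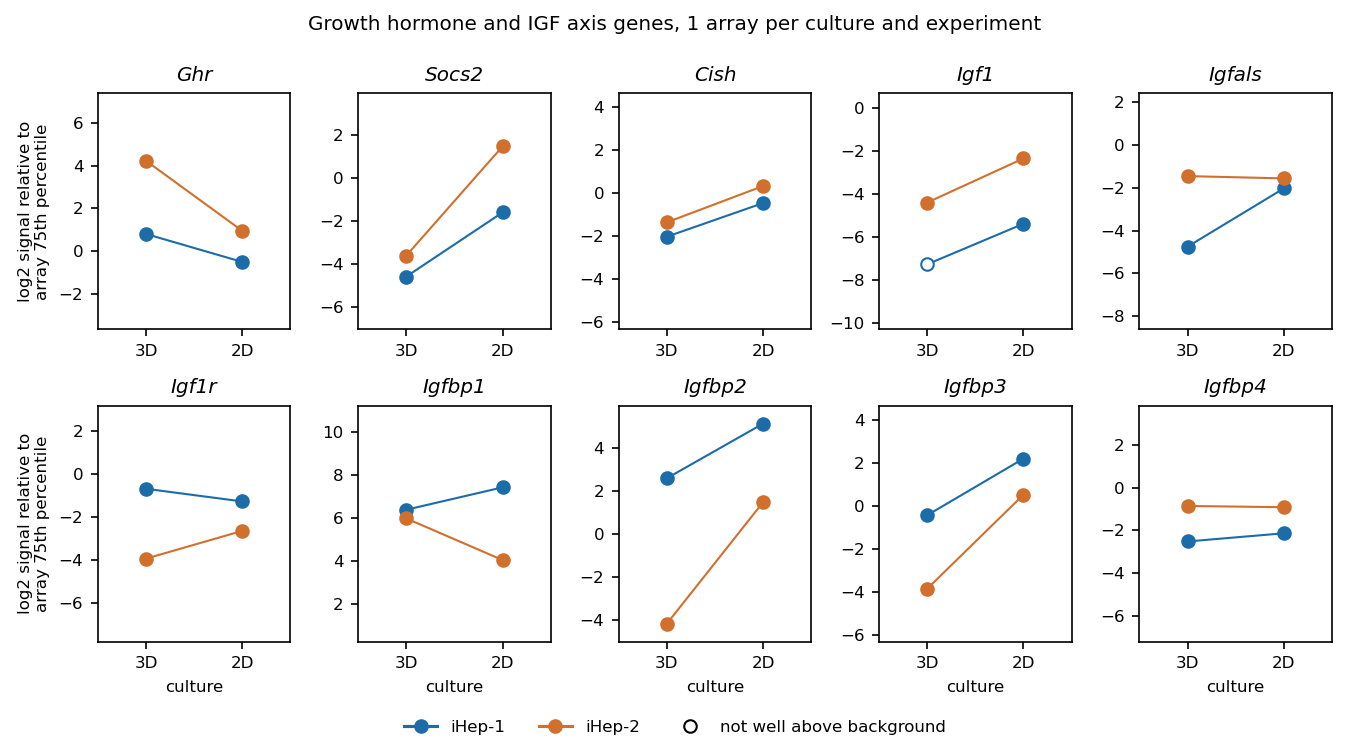
Level of each axis gene by its brightest probe in 3D (left) and 2D (right) culture, in log2 units relative to the array's 75th percentile, with 1 point per array and lines joining the arrays of an experiment. Every panel spans the same number of log2 units; the lines for Socs2, Cish and Igf1 run the same way in both experiments and opposite to those for Ghr.

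The feedback genes were lower in 3D. Socs2, whose SH2 protein limits growth hormone signalling and whose loss causes overgrowth in mice, stood at -4.59 and -3.61 in 3D of iHep-1 and iHep-2, against -1.59 and 1.49 in 2D. Both 3D arrays were below both 2D arrays. The differences were -2.99 and -5.10, with a mean of -4.05 ± 1.23 (SE; 95% interval -7.61 to -0.48; unadjusted p = 0.0352, adjusted p = 0.683, limma). That mean corresponds to a 16.5-fold lower signal in 3D, where the processed signal was dim, at 24.8 and 32.7 intensity units. With normexp background correction the differences were -1.66 and -3.74 (mean -2.70). A second Socs2 probe, at chr10:94850747-94850806, was measured above background on both 2D arrays and neither 3D array. It differed by -1.34 and -5.10, values that rest on background signals in 3D. By the means of the cultures, its 2D signal was at least 6.72-fold the 3D one.

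Cish encodes another STAT5-induced SH2 protein that restrains cytokine receptors. Its single probe stood at -2.04 and -1.37 in 3D of iHep-1 and iHep-2, against -0.47 and 0.32 in 2D, again with both 3D arrays below both 2D arrays. The differences of -1.57 and -1.69 were close in size, and the mean was -1.63 ± 0.44 (SE; 95% interval -2.91 to -0.35; unadjusted p = 0.0250, adjusted p = 0.683, limma). Together with Igfbp3, Socs2 and Cish were the 3 axis genes with both 3D arrays below both 2D arrays, a pattern that 21.5% of all tested genes showed. The converse, both 3D arrays above both 2D arrays, was found for 0 axis genes and 19.9% of all tested genes.

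Igf1 was dim throughout. Its probe at chr10:87393516-87393575, printed in 10 spots on each array, stood at -7.28 and -4.40 in 3D of iHep-1 and iHep-2, against -5.38 and -2.34 in 2D. The highest array was 2D of iHep-2, and the cultures overlapped because 3D of iHep-2 was above 2D of iHep-1. In iHep-2 the processed signal was 19.1 intensity units in 3D, against 122 in 2D, where the arrays' 75th percentiles were 399 and 616. The differences were -1.89 and -2.06 (mean -1.98 ± 1.58, SE; 95% interval -6.57 to 2.62; adjusted p = 0.770, limma). With the experiment as a block the SE was 0.23 (adjusted p = 0.213, limma).

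The repeated spots gave the measuring error within an array. Within iHep-1 their SD was 0.42 log2 units in 3D, against 0.19 in 2D, and within iHep-2 it was 0.17 in 3D, against 0.073 in 2D. In 3D of iHep-1, 0 of 10 spots were well above background and 9 were used, so the iHep-1 difference rests on a dim value; on the other 3 arrays 10 of 10 were above background. Normexp background correction, which adds an offset and so compresses dim signals, gave a mean difference of -0.47. The Igf1 probe whose sequence is printed above differed by -2.92 and -1.68 and was likewise not well above background in 3D of iHep-1, and the other 2 Igf1 probes were not well above background on any array.

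**Figure D3:**
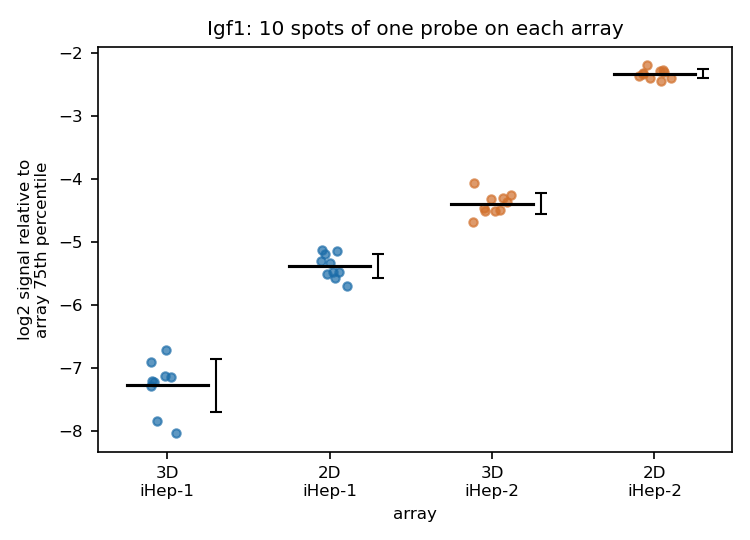
Level of Igf1 in each spot of the probe printed 10 times per array, in log2 units relative to the array's 75th percentile; black lines are means and bars the SD over spots (9 spots in 3D of iHep-1, 10 on the others). For iHep-1 the means were -7.28 in 3D, against -5.38 in 2D, and for iHep-2 -4.40 in 3D, against -2.34 in 2D, with no overlap between the spots of different arrays.

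Igfals, which encodes the acid-labile subunit that prolongs the life of IGF-1 in blood, did not follow Igf1 in iHep-2. It stood at -4.75 and -1.46 in 3D of iHep-1 and iHep-2, against -2.03 and -1.56 in 2D. The value of 3D in iHep-1 was far below those of the other 3 arrays, which were close together. The differences were -2.72 and 0.11 (mean -1.31 ± 1.26, SE; adjusted p = 0.801, limma). The mean was 0.34 without 3D replicate 1, and with spike-in scaling the iHep-2 difference turned to -0.42 (median of all genes -0.49).

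Igf1r, the receptor through which IGF-1 signals growth and survival, was higher in 3D in iHep-1 and lower in iHep-2. It stood at -0.68 and -3.94 in 3D of iHep-1 and iHep-2, against -1.27 and -2.64 in 2D. The differences were 0.59 and -1.30 (mean -0.35 ± 1.34, SE; adjusted p = 0.956, limma). Its other probe above background on every array differed by 0.56 and -0.98, and the third, above background only in iHep-1, by 1.06 and -0.42. With spike-in scaling the iHep-1 difference turned to -1.08, where the median of all genes was -1.69.

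**Figure D4:**
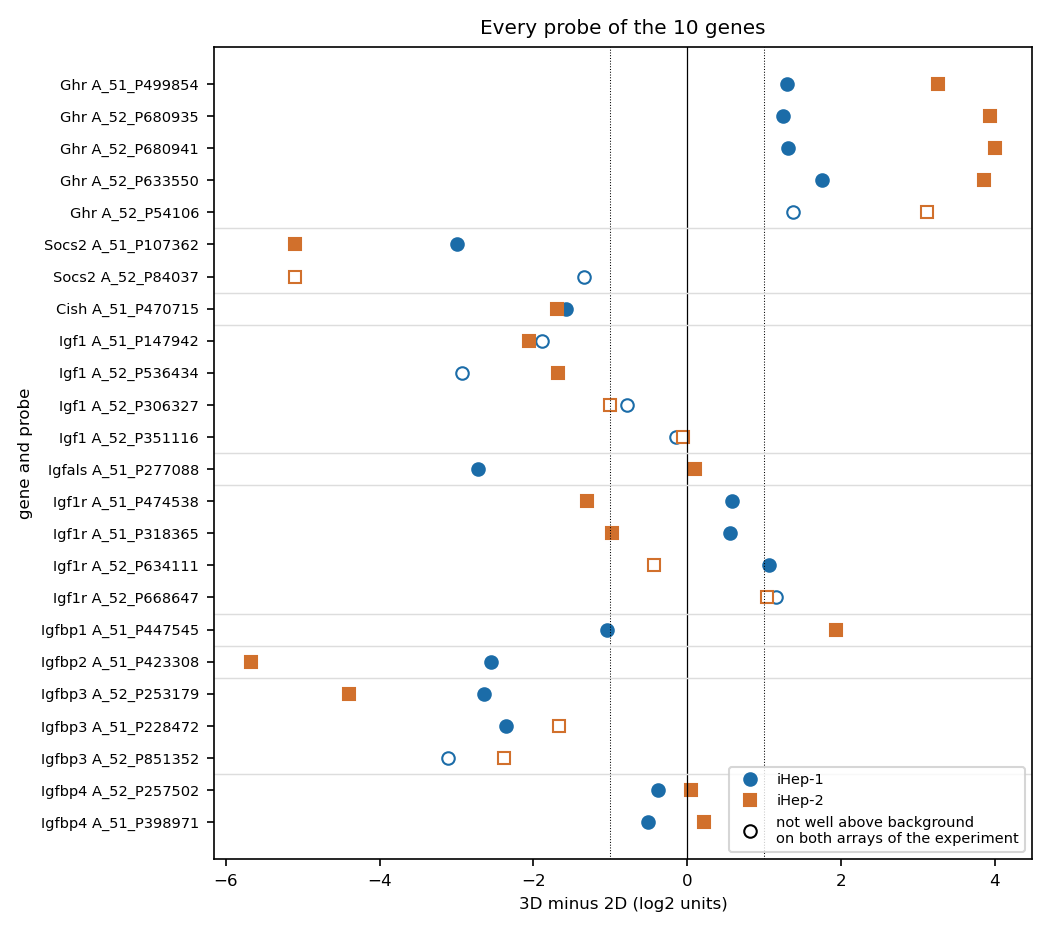
Differences between 3D and 2D culture in log2 units for all 24 probes of the 10 genes, in iHep-1 (circles) and iHep-2 (squares); open symbols mark experiments in which the probe was not well above background on both arrays. The 5 Ghr probes lie right of 0 in both experiments, and both Socs2 probes and the 3 Igfbp3 probes lie left of it.

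The IGF-binding proteins divided into lower and mixed genes. Igfbp2, a carrier that fetal liver makes in quantity, stood at 2.61 and -4.18 in 3D of iHep-1 and iHep-2, against 5.15 and 1.49 in 2D. The order was the same in both experiments, but 3D of iHep-1 was above 2D of iHep-2, so the cultures overlapped. The processed signal was 22.0 intensity units in 3D of iHep-2 and 18625 in 2D of iHep-1, the extremes of the 4 arrays. The differences were -2.55 and -5.67 (mean -4.11 ± 2.89, SE; 95% interval -12.52 to 4.30; adjusted p = 0.747, limma).

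Igfbp3, the main carrier of IGF-1 in plasma, stood at -0.42 and -3.85 in 3D of iHep-1 and iHep-2, against 2.22 and 0.54 in 2D. Both 3D arrays were below both 2D arrays. The differences were -2.64 and -4.39 (mean -3.52 ± 1.44, SE; 95% interval -7.71 to 0.68; adjusted p = 0.683, limma). The probe printed above differed by -2.35 and -1.67, and was not well above background in 3D of iHep-2. The third probe was above background in 2D only, where its signal was at least 3.40-fold that in 3D. In adult liver, Igfbp3 is made mostly by cells other than hepatocytes. Of 4 endothelial markers, Cdh5 was tested, and Pecam1, Kdr and Tek were above background on fewer than 2 arrays. On the 3D arrays Cdh5 was not well above background, and its processed signal was 9.20 and 10.5 in 3D of iHep-1 and iHep-2, against 55.2 and 44.2 in 2D. The summed processed signal of the 3 tested fibroblast markers, again not scaled between arrays, was 4412 and 3029 in 3D, against 2653 and 3016 in 2D. Most of it came from Pdgfra. Pdgfrb, which pericytes and stellate cells also express, was lower in 3D in both experiments, as Igfbp3 was. Its differences were -1.08 and -3.33 (not well above background in 3D of iHep-2), while Pdgfra differed by 0.65 and 0.65 and Col1a2 by 1.23 and 0.22. Of 3 tested stellate and smooth muscle markers, Acta2 differed by -0.12 and -0.31, Tagln by -0.10 and 0.68, and Lrat by -0.04 and 0.92. Lrat was well above background on 2 arrays. The 2 tested macrophage markers were Cd68 (1.59 and 0.06) and Csf1r (1.16 and -1.63), the latter well above background on 3 arrays. The part of such cells in the Igfbp3 values was not tested.

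Igfbp1, a secreted inhibitor of IGF action that hepatocytes make when insulin is low, was bright on every array. It stood at 6.39 and 5.98 in 3D of iHep-1 and iHep-2, against 7.43 and 4.03 in 2D. The 3D arrays were close to each other and lay between the 2D arrays. The differences were -1.04 and 1.94 (mean 0.45 ± 1.29, SE; adjusted p = 0.939, limma). It was the only axis gene at least 2-fold apart in opposite directions, as 0.802% of all tested genes were. The mean difference turned to -0.65 with spike-in scaling (median of all genes -1.08) and to -1.25 without 2D replicate 2.

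Igfbp4, a binding protein that mainly inhibits IGF action, showed the smallest differences among the 10 genes. It stood at -2.51 and -0.86 in 3D of iHep-1 and iHep-2, against -2.13 and -0.91 in 2D. The differences were -0.38 and 0.06 (mean -0.16 ± 0.79, SE; 95% interval -2.47 to 2.15; adjusted p = 0.966, limma), and a second probe gave -0.51 and 0.22. The interval includes 4-fold changes in either direction. Leaving out 3D replicate 1 gave a mean of 0.67, and leaving out 2D replicate 2 gave 0.45. With spike-in scaling the iHep-2 difference turned to -0.47 (median of all genes -0.49).

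Neighbouring binding protein genes differed in their values. Igfbp1 and Igfbp3 are adjacent protein-coding genes on chromosome 11, with their brightest probes 4.15 kb apart. In iHep-2 Igfbp1 differed by 1.94 and Igfbp3 by -4.39, and in iHep-1 both were lower in 3D. Igfbp2 is likewise adjacent to Igfbp5 on chromosome 1, with 6.15 kb between the probes (chr1:72898677-72898736 and chr1:72904829-72904888). Igfbp5, a matrix-associated binding protein, stood at 2.11 and 3.13 in 3D of iHep-1 and iHep-2, against -0.62 and -1.10 in 2D. It differed by 2.73 and 4.23, opposite to Igfbp2 (mean 3.48; adjusted p = 0.683, limma).

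Several axis genes also differed between the 2 experiments within a culture. Igf1 was higher in iHep-2 than iHep-1 by 2.88 log2 units in 3D, where iHep-1 was not well above background, and by 3.05 in 2D. Ghr was 3.42 higher in 3D and 1.45 higher in 2D, and Igfbp4 1.66 and 1.22. Igfbp2 differed between iHep-2 and iHep-1 by -6.79 in 3D and -3.66 in 2D, Igf1r by -3.26 and -1.37, and Igfbp3 by -3.43 and -1.68. Thus 3 of 10 axis genes were at least 2-fold higher and 3 at least 2-fold lower in iHep-2 in both cultures, against 5.12% and 5.75% of all tested genes. These differences were not tested, since each experiment had 1 array per culture. Cish was 0.67 higher in iHep-2 in 3D and 0.80 higher in 2D, and Socs2 0.98 and 3.08 higher.

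Promoter sequences from RefSeq (build GRCm38.p6; 250 bases before to 50 after a listed start) matched 9 of the 10 genes, in 13 windows; Socs2 has no entry. The windows were searched on both strands for TTCNNNGAA, the palindromic core that STAT5 binds, and for CAAAACAA, which occurs in the insulin response element of Igfbp1. The STAT5 core occurred in 8.30% of 32851 windows and more than once in 0.457%. Among the axis genes it occurred in the Cish window, 2 times, and in 2 of 3 Igfals windows, but not in those of Ghr, Igf1, Igf1r or the binding proteins. CAAAACAA occurred in 2.51% of windows and, among the axis genes, in that of Igfbp1. The Cish and Igfbp1 stretches holding these matches are printed with the matches in capitals. The first Cish match begins at the listed start itself.
Cish, chr9:107296579-107296678, plus strand: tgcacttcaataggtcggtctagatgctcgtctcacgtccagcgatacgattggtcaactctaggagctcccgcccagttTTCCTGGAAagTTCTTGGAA
Igfbp1, chr11:7197657-7197756, plus strand: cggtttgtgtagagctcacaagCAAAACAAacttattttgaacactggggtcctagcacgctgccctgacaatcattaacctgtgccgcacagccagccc
A match describes the letters of this window and is not a measured site.

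Genes between the receptor and its targets showed small differences. Jak2 differed by 0.06 and -0.55 in iHep-1 and iHep-2, Stat5a by 0.47 and 0.27, and Stat5b by 0.04 and 0.21 (a dimmer Stat5b probe gave 0.07 and -0.47). In this list of 13 tested signalling genes, 4 were higher in both experiments and 4 lower in both, none at least 2-fold in both, and the median mean difference was 0.08, against 0.02 over all tested genes. Socs1, another inhibitor of JAK kinases, differed by -1.66 and -0.64. The phosphatase gene Ptpn11 differed by -0.58 and -0.66, and the STAT5-opposing repressor Bcl6 by 0.51 and 1.21. Over all 16458 genes, 33.2% were higher in both experiments and 33% lower in both. With spike-in scaling these became 467 and 12114 genes, and 0 and 12 of the 13 signalling genes. Then 4 of the 13, Jak2, Socs1, Socs3 and Ptpn11, were at least 2-fold lower in both, against 3377 of all genes. On that scaling Jak2 differed by -1.61 and -1.08, Stat5b by -1.63 and -0.32, and Bcl6 by -1.16 and 0.68. The medians of all genes were then -1.69 and -0.49.

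Of 12 tested liver genes whose sex bias depends on growth hormone, 7 were higher in both experiments, 3 of them at least 2-fold, and 0 lower in both. Over all tested genes these shares were 33.2%, 4.26% and 33%. The median of the list was 2.45 in iHep-2, against 0.32 in iHep-1. The 7 hepatocyte markers likewise had a median of 1.43 in iHep-2, against -0.17 in iHep-1. With spike-in scaling 4 of the 12 sex-biased genes were higher in both and 0 lower in both, against 467 and 12114 of all 16458 genes. The genes at least 2-fold higher were Cyp2b13 (6.38 and 6.41), Cyp2b9 (5.93 and 6.14) and Cyp2a4 (1.76 and 10.07), which encode female-biased cytochromes P450 of mouse liver and have close relatives whose RNA can cross-hybridise. Cyp2b13 was not well above background in 2D of iHep-2, and normexp gave 3.49 in that experiment. A second Cyp2b13 probe disagreed with the first in iHep-1, at -0.02, and gave 2.04 in iHep-2. The other 4 genes higher in both are male-biased, and are named after their values were seen. They were Mup1 (0.34 and 7.13), Cyp2d9 (0.30 and 3.54), Cyp4a12a (0.90 and 0.80, not well above background in 2D of iHep-1) and Cyp7b1 (2.51 and 0.69, not well above background in iHep-2). Hsd3b5 and Elovl3, also male-biased, were among 6 genes of the list not tested. No member passed the adjusted threshold by limma, and 1 had an unadjusted p under 0.05, against 7.03% of all genes.

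Among other IGF and insulin ligands, receptors and adaptors, 5 of 8 tested genes were lower in both experiments and 2 higher in both. Over all tested genes these shares were 33% and 33.2%. With the mean over the probes of a gene 3 of the 8 were lower in both, against 5334 of all 16458 genes. With spike-in scaling all 8 were, against 12114 of all genes. Igf2, the fetal IGF, stood at 6.48 and 8.50 in 3D of iHep-1 and iHep-2, against 8.28 and 7.97 in 2D. Its differences of -1.80 and 0.53 had opposite signs. Igf2r, which clears IGF-2, differed by -0.64 and -0.21 and the insulin receptor gene Insr by -0.47 and -0.17, with 0.47 in iHep-2 by a dimmer Insr probe. The adaptor Grb14, which inhibits insulin receptor signalling, differed by -1.04 and -1.69. It was the single gene of the list at least 2-fold lower in both, against 2.13% of all genes. Grb10, a related adaptor, differed by -1.04 and -0.44, and Insrr by 0.28 and 0.34. Dimmer Grb10 probes, not well above background in iHep-2, gave 0.62 and 0.61 there. Normexp turned the iHep-1 difference of Insrr to -0.08.

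Of 7 tested genes among other binding proteins, their proteases and protease inhibitors, 4 were at least 2-fold lower in both experiments (all genes 2.13%). These were Igfbp7 (-1.21 and -1.92), the protease gene Htra1 (-1.78 and -4.46), and the stanniocalcins Stc1 (-2.89 and -2.46) and Stc2 (-1.85 and -1.49), whose proteins inhibit the IGFBP-cleaving protease encoded by Pappa. The Stc1 probe was not above background in 3D, where its signal was lower than in 2D by a factor of at least 6.15. Another Stc1 probe was instead higher in 3D of iHep-2, by 1.26. With normexp Stc1 differed by -0.67 and 0.02. Then 3 genes of the list were at least 2-fold lower in both, against 130 of all genes. Stc2 is named outside the rule for named genes, after its values were seen. Igfbp5 was the 1 gene higher in both. The list's median mean difference was -1.57, against 0.02 over all tested genes. None of its members passed the adjusted threshold by limma, and 3 had an unadjusted p under 0.05, against 7.03% of all genes. With spike-in scaling 1 was higher and 6 were lower in both, against 467 and 12114 of all 16458 genes. Igfbp5 remained the higher one (1.06 and 3.70).

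Of the 3 tested IGF2 mRNA-binding protein genes, 2 were lower in both experiments, against 33% of all tested genes. Igf2bp1 differed by -0.04 and -3.43 (0.38 and -2.67 by a second probe) and Igf2bp3 by -0.37 and -0.19. FOXO factors and insulin-repressed liver genes were higher in both experiments in 4 of 6 tested cases and lower in 1. Over all tested genes these shares were 33.2% and 33%. With spike-in scaling, however, 0 of the 6 were higher and 2 lower in both, against 467 and 12114 of all 16458 genes. G6pc, which releases glucose from the liver, differed by 1.52 and 6.75, and Pdk4, which restrains pyruvate oxidation, by 1.58 and 3.26. With spike-in scaling, however, their iHep-1 differences turned to -0.15 and -0.08, where the median of all genes was -1.69. Foxo4 differed by -0.61 and -0.60, but it was not well above background in 3D of iHep-2, and normexp turned that difference to 0.35. Igfbp1, also repressed by insulin, shared the direction of G6pc and Pdk4 in iHep-2 but not in iHep-1. No gene of either list passed the adjusted threshold by limma.

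**Figure D5:**
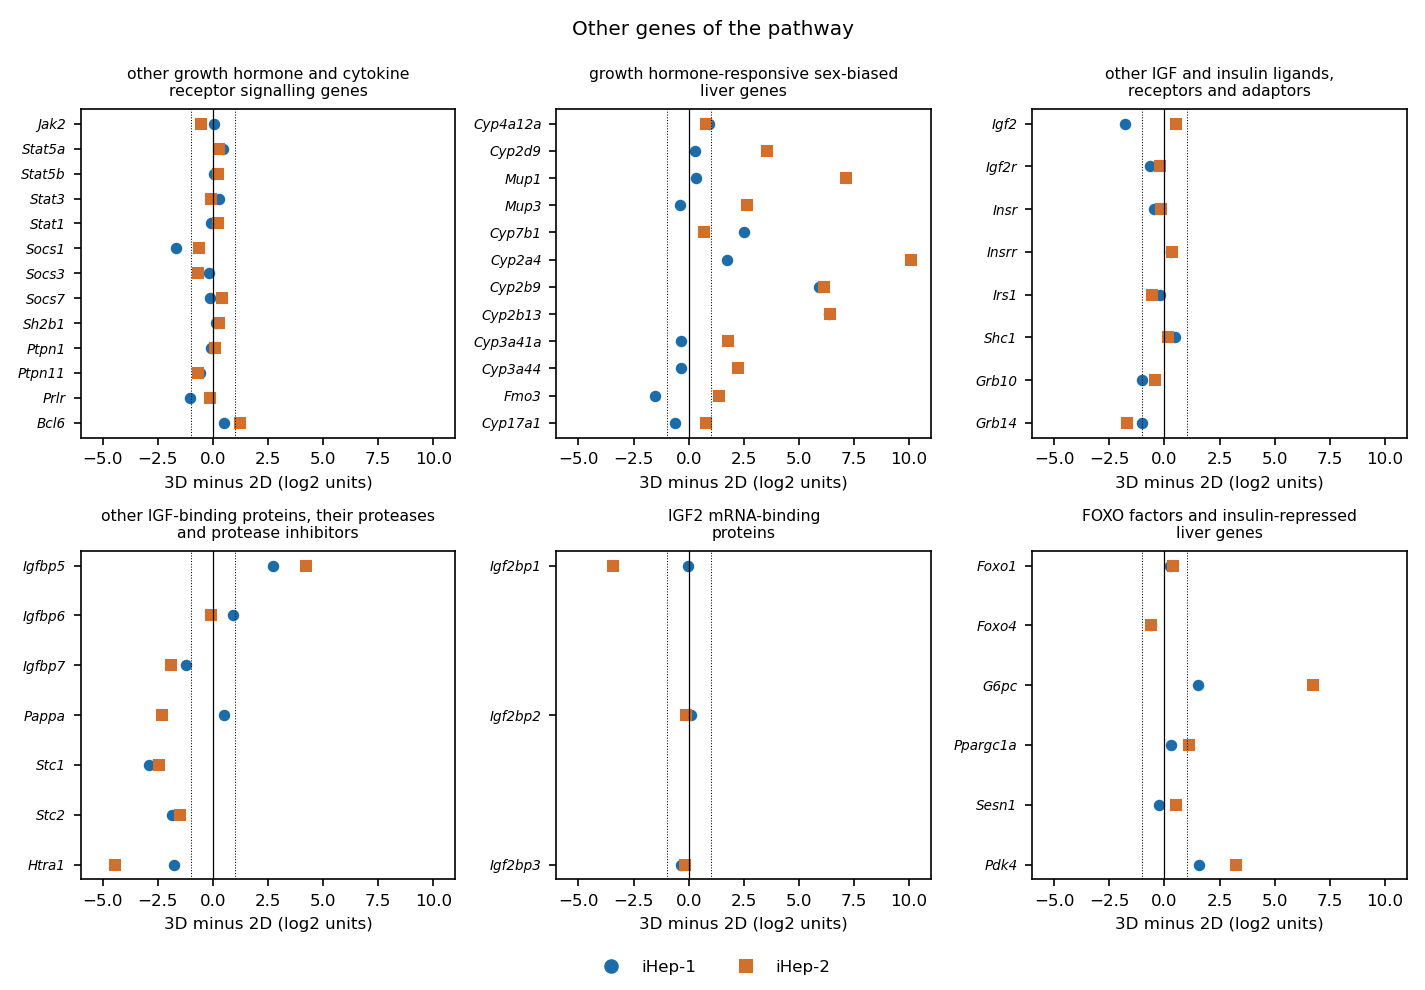
Differences between 3D and 2D culture in log2 units for the tested genes of 6 other lists of the pathway, in iHep-1 (circles) and iHep-2 (squares); dotted lines mark 2-fold. Jak2, Stat5a and Stat5b lie within 2-fold of 0 in both experiments, Cyp2b9 and Cyp2b13 near 6, and Igfbp5 lies right of 0 while Igfbp7, Htra1, Stc1 and Stc2 lie left of it.

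The genes with profiles most like those of Igf1 and Socs2 were found by the Euclidean distance between log2 values over the 4 arrays, each gene centred on its mean. For Igf1 they included Fjx1 (distance 0.57 log2 units), well above background on 2 of 4 arrays, and Pgc (0.58), which differed by -2.55 and -1.81 in iHep-1 and iHep-2. For Socs2 they were Tnc (0.59), Atf7ip2 (0.64) and Myt1 (0.90), each well above background in 2D only, so that their distances and order rest on background values in 3D.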

How the data were processed

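Cy3-labelled cRNA from 4 samples was hybridised to 1-colour Agilent arrays of design 014868 on 1 slide scanned at 1 time, per the file headers. The deposited files hold spot intensity values from Agilent Feature Extraction (9.5.1.1 per the submitters' processing notes, 10.7.1.1 per the file headers); the authors' series table holds normalized intensity values whose normalization the sources used here do not state, with medians of 26.3 in both arrays of iHep-1 and 22.6 in both of iHep-2.

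From these, log2 of the processed signal minus each array's 75th percentile was taken, flagged outlier spots were left out (72 to 85 per array), and spots of a probe were averaged. Probes were named by accession (24836) or symbol (7860) from a RefSeq table of GRCm38.p6, else by the file's name (8478). Probes well above background on at least 2 arrays were kept, and the brightest represented each of 16458 genes. The test was limma's (3.58.1, R 4.3.3), two-sided, 3D against 2D, with Benjamini-Hochberg adjustment over all genes, and it was also run on simulated data. The design text makes the replicate number a shared experiment, so it pairs the arrays (deviations of same-numbered arrays correlated at r = 0.66). The fit with that block is an alternative. Unless a block is named, SEs and intervals are from the fit without it, and so include differences between iHep-1 and iHep-2. The number of arrays limits the precision. The 10 genes, lists and tests were chosen with earlier results of these data known. Text names the 10 genes, up to 3 genes per list with the largest smaller difference of shared sign, 8 fixed genes, and the nearest profiles of Igf1 and Socs2. One of the nearest profiles is not reported here.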

Additional observations from a re-analysis of the deposited data

Results flagged for a closer look

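Of the 10 axis genes and 8 further fixed genes, 6 differed between 3D and 2D in opposite directions in the 2 experiments. Of all tested genes 33.8% did so. The difference between the experiments was not tested because each had 1 array per culture. The iHep-2 difference minus the iHep-1 difference was 2.99 log2 units for Igfbp1, 2.83 for Igfals, 2.33 for Igf2, -1.89 for Igf1r, -0.61 for Jak2 and 0.44 for Igfbp4. In Jak2 and Igfbp4 1 of the 2 differences was 0.06 in size, and in Igfals 1 was 0.11. Groups of 2 arrays are too small for a check on single outlying samples.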

How the results depend on the processing

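Over 12 alternatives, 108 of 119 values of the 10 genes kept their direction and their side of the adjusted threshold, 8 turned direction and 3 passed the threshold. The turned values were 0.077 for Igf1r with normexp background correction, -0.65 for Igfbp1 with spike-in scaling, and others without 1 array. Leaving out each array in turn gave mean differences of -1.98 to 1.28 for Igf1r (1.28 without 3D replicate 2 and 0.33 without 2D replicate 1), -2.95 to 0.34 for Igfals, -1.25 to 2.15 for Igfbp1, -0.99 to 0.67 for Igfbp4, 0.58 to 3.995 for Ghr, -3.50 to -0.45 for Igf1, -7.50 to -0.72 for Igfbp2, -5.23 to -1.80 for Igfbp3, -5.59 to -2.50 for Socs2 and -2.03 to -1.23 for Cish; an array left alone in its culture is then assumed to vary like the others. Spike-in scaling moved the median of all genes to -1.08, and limma then called 292 genes, 76 higher (0.462%) and 216 lower (1.31%). Among the lower were Igfbp2, Igfbp3 and Socs2 (adjusted p = 3.83e-05, 0.000413 and 4.80e-05). On that scaling the p-values of the axis genes followed the size of the mean difference alone and do not measure each gene's own spread. The cause of the shift was not tested. The counts of all genes at least 2-fold higher and lower in both experiments were 701 and 350, against 331 and 130 with normexp, 457 and 204 where every array had to exceed background, and 168 and 3377 on spike-in scaling. With spike-in scaling 0 axis genes were at least 2-fold higher in both and 6 lower, and 4 were lower with normexp or where every array had to exceed background, both times without Igf1. With the experiment as a replicate block, limma called 0 genes (smallest adjusted p = 0.125, against 0.496 without it), and adjusted p was 0.347 for Ghr, 0.213 for Igf1, 0.260 for Socs2 and 0.237 for Cish. The block leaves within-experiment counts as they are, and these counts cannot be formed when 1 array is left out. Igf1 gave no value where every array had to exceed background. Dim signal limits Igf1 in 3D of iHep-1.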
